A study of Mus musculus with 12 samples.

Results

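Gas1, Gdpd2, Mme, Klhl38 and Fmo1 were 5 of the 55573 genes in the count table, and all 5 were among the 13836 genes with enough reads to be tested. They were taken by name from a list that was chosen on these same libraries for higher levels with the FGF receptor inhibitor PD173074 than with DMSO. In that comparison Mme, Klhl38 and Fmo1 held ranks 1, 2 and 3 by p-value when the cell line was a block, and Gas1 and Gdpd2 held ranks 2 and 4 without it. Just outside this set were Il1rn at rank 4 with the block, with a log2 fold change of 3.61, and Bmf and Gm13216 at ranks 1 and 3 without it, with log2 fold changes of 3.52 and -2.68. The rise of the 5 genes with PD173074 against DMSO is therefore a description. The comparison of the combination with Crizotinib contrasts none of those libraries, although all 12 share one estimate of the spread.

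RNA-sequencing was performed on tumourspheres, clusters of cells grown in suspension, of the 3 mouse breast tumour lines A1005, A1129 and A1471. Each line was treated for 24 h with DMSO, with Crizotinib (a Met kinase inhibitor), with PD173074 or with both inhibitors (labelled Combo), which gave 12 libraries and n = 3 lines per treatment. All groups, DMSO included, carried the genotype MMTV-Metmt;Trp53fl/+;Cre: a mutant Met transgene under the MMTV promoter, 1 floxed Trp53 allele and Cre. The replicate was the cell line, each grown from spindle-shaped tumours of this model and sequenced once per treatment, in a sphere medium that holds basic FGF, EGF and insulin. In bulk tumourspheres, more RNA per cell and more cells of one kind cannot be told apart.

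FGF receptors and Met are receptor tyrosine kinases that share the Ras-ERK and PI3K-Akt pathways. Active ERK raises its own inhibitors of the Dusp and Spry families and the Etv transcription factors, so these genes fall when the pathway is blocked. The 5 genes have unrelated products. Gas1 is a lipid-anchored surface protein first found in growth-arrested fibroblasts and a co-receptor for Hedgehog ligands together with Cdon and Boc. Gdpd2 is a membrane glycerophosphodiester phosphodiesterase. Mme is neprilysin, or CD10, a surface zinc peptidase that cleaves short peptides and that marks myoepithelial cells in the mammary gland. Klhl38 belongs to the kelch-like proteins, many of which bring substrates to cullin 3 ubiquitin ligases. Fmo1 is a flavin-containing monooxygenase that oxidises nitrogen and sulphur groups of drugs and other small molecules.

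The genes lie on 5 different chromosomes (build mm10, GENCODE annotation). Gas1 spans 2961 bases on the minus strand at chr13:60174405-60177365, and its annotated exons cover the whole span. Gdpd2 spans 9023 bases on the plus strand at chrX:100729873-100738895. Mme is the longest, with 144494 bases on the plus strand at chr3:63241537-63386030. Klhl38 lies on the minus strand at chr15:58314573-58324169 and Fmo1 on the minus strand at chr1:162829561-162866610. Annotated genes on the opposite strand share exon bases with 3 of them: Gm48488 with Gas1 (9 to 33 counts per library), Gm14866 with Gdpd2 (0 to 15 counts) and Gm15943 with Klhl38 (0 to 5 counts). Whether strand was used in the counting is not given in the sources used here, so reads of these overlaps cannot be assigned with certainty.

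Start regions of the genes matched in RefSeq (GRCm38.p6, windows of 300 bases that end shortly after a start) are shown for 3 of the 5, Gas1, Gdpd2 and Mme, with 1 of the annotated starts each. The windows are chr13:60177486-60177785 on the minus strand, chrX:100729597-100729896 on the plus strand and chr3:63295845-63296144 on the plus strand. The Mme window lies inside the annotated gene span, at a start downstream of the outermost one. Capitals mark the single match to a motif.
Gas1: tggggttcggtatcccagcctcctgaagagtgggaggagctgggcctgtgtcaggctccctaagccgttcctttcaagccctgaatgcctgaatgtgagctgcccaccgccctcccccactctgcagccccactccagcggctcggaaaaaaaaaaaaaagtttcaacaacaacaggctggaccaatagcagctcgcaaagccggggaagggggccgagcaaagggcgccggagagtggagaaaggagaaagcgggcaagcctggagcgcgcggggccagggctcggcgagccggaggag
Gdpd2: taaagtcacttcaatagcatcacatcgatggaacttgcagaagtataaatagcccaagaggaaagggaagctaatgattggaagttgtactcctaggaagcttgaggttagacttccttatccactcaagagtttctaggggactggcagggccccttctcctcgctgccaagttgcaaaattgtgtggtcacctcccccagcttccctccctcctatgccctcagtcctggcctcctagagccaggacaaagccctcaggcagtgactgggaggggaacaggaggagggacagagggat
Mme: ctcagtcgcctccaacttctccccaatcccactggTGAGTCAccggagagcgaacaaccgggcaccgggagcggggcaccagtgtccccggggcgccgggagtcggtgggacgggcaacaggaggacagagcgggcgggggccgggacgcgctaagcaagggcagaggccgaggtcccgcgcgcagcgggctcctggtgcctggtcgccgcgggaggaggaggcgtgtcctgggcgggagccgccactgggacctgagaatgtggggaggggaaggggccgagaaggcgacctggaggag

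Both strands of the 6 windows of these genes were searched for the letters TGANTCA (AP-1), TGTTTAC (FOXO), CCGGAAG (ETS), TGACGTCA (CRE) and GACCACCCA (GLI). The matched letters were 1 AP-1 motif upstream of the Mme start shown, at position -215, which is also position 9 downstream of the neighbouring start whose window overlaps it. The Gas1 window, both Gdpd2 windows and the first Mme window, which is not shown, held none of the 5 motifs. Of all 32851 windows, 7.81% held the AP-1 letters, 3.65% FOXO, 8.86% ETS, 1.79% CRE and 0.253% GLI. The GC content was 62.3% in the Gas1 window, 52% in the first Gdpd2 window and 72.3% in the Mme window shown, beside a median of 52.7% over all windows. In the first and second Mme windows it was 46% and 73%.

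Gas1 was the most abundant of the 5 genes with DMSO and with Crizotinib, and it had the smallest fold change with PD173074. In CPM (reads of a gene scaled to a common library total), its levels with DMSO were 78.9 (A1005), 79.7 (A1129) and 84.8 (A1471). With Crizotinib it was 84.2, 94.8 and 86.3 CPM in the same order of lines. With PD173074 it was 167.3, 134.9 and 131.7 CPM, and with the combination 192.1, 185.1 and 164.5 CPM. All libraries with PD173074, alone or combined, lay above all those without it, whereas the PD173074 and combination groups overlapped.

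Gdpd2 had low levels without PD173074. It was at 8.04, 9.27 and 3.799 CPM with DMSO in A1005, A1129 and A1471, and at 3.62, 11.4 and 2.44 CPM with Crizotinib. PD173074 libraries held 69.5, 59.0 and 59.0 CPM, and combination libraries 236, 193.1 and 150.7 CPM. No 2 of these groups overlapped except DMSO and Crizotinib, and the combination libraries lay above all PD173074 libraries.

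Mme differed most between lines in absolute terms. With DMSO it stood at 15.7 CPM in A1005 but at 0.526 CPM in A1129 and 1.17 CPM in A1471. Crizotinib libraries held 13.1, 0.925 and 0.791 CPM, PD173074 libraries 194 (A1005), 11.2 (A1129) and 38.5 (A1471) CPM, and combination libraries 305 (A1005), 30.3 (A1129) and 67 (A1471) CPM. The A1129 library with PD173074 lay below the A1005 library with DMSO, so these 2 groups overlapped, although each line rose.

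Klhl38 was counted mainly in A1005. Its raw counts in A1005 were 3 with DMSO, 7 with Crizotinib, 163 with PD173074 and 538 with the combination. In A1129 they were 0, 0, 1 and 2, and in A1471 0, 0, 1 and 9. At these depths a change with PD173074 alone was not detectable in A1129 or A1471, since both values lay under the limit of 3 counts that a count of 0 allows. These limits, like the intervals on counts given below, cover counting error only.

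Fmo1 was also near 0 without PD173074. In A1005 its raw counts were 1 with DMSO, 3 with Crizotinib, 212 with PD173074 and 579 with the combination. In A1129 they were 0, 1, 5 and 39, and in A1471 0, 0, 14 and 27. Every library with PD173074 held more Fmo1 reads than every library without it, and the PD173074 and combination groups overlapped.

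**Figure D1:**
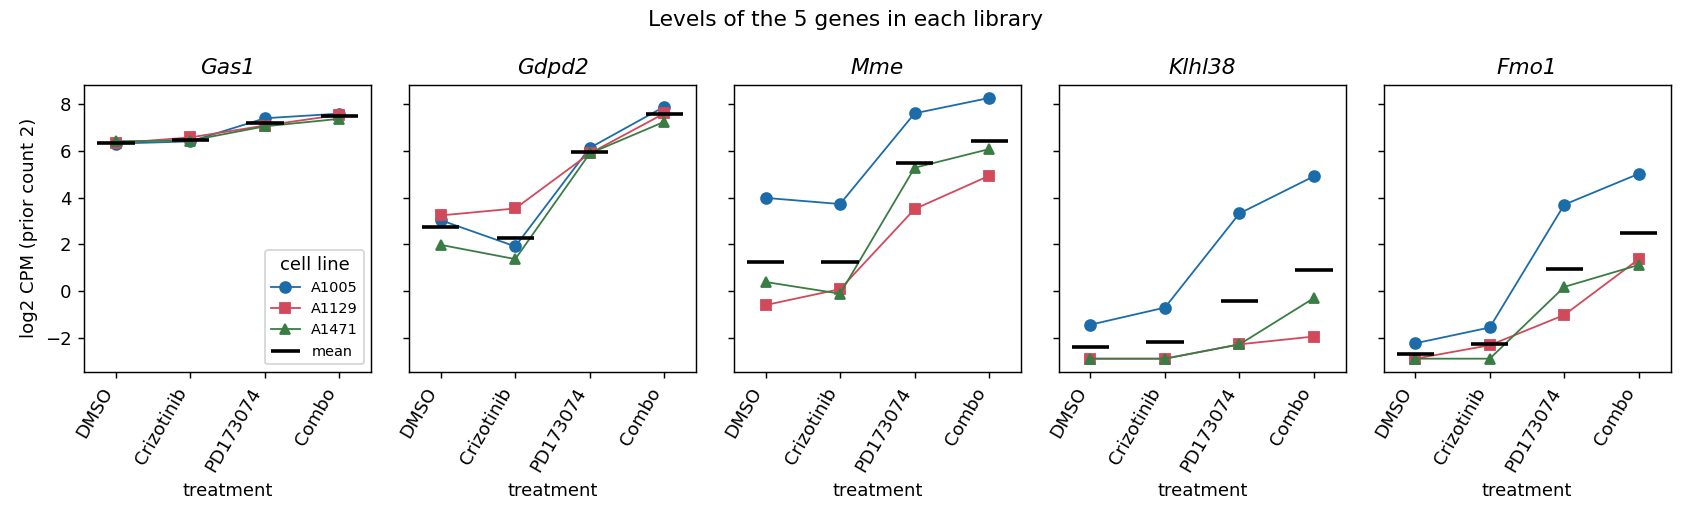
Log2 CPM (prior count 2) of each gene by treatment, with 1 point per library, lines joining the libraries of one cell line and a black bar for the mean of 3 lines. The lines nearly coincide for Gas1, those of Gdpd2 lie closer with PD173074 than with DMSO or Crizotinib, and A1005 stands above A1129 and A1471 for Mme, Klhl38 and Fmo1 in every treatment, although without PD173074 no library holds more than 7 counts of Klhl38 or 3 of Fmo1.

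Per kilobase of exon, the mean level with DMSO was 27.4 CPM for Gas1, 1.53 for Gdpd2, 0.502 for Mme, 0.0353 for Klhl38 and 0.00413 for Fmo1. With the combination the order of the mean levels was the same, at 61.0, 41.9, 11.6, 4.63 and 1.94 CPM per kilobase. Gdpd2 (32.7 to 51.2) did not reach Gas1 (55.6 to 64.9), and Mme (2.63 to 26.5) did not reach Gdpd2. The ranges of Mme, Klhl38 (0.0567 to 13.5) and Fmo1 (0.323 to 5.11) overlapped.

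Within lines, the rise with PD173074 over DMSO for Gas1 was 2.12-fold (A1005), 1.69-fold (A1129) and 1.55-fold (A1471). For Gdpd2 it was 8.64-fold, 6.36-fold and 15.5-fold in the same lines. For Mme it was 12.3-fold, 21.4-fold and 32.8-fold, the smallest in the line with the highest starting level. Over the summed counts of the 3 lines, Klhl38 was 52.4-fold higher (165 against 3 counts, 95% exact interval of the ratio 17.6 to 257). Fmo1 was at 231 against 1 count, a ratio of 220.2 with an interval of 39.1 to 8736. In A1471 Fmo1 was at least 4.81-fold higher and in A1129 at least 1.81-fold higher, against the limit of 3 counts per library.

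This is the contrast the genes were chosen from, and its tests are given only to describe that choice. In the unpaired quasi-likelihood test of edgeR, which follows the study's stated design, 0 of the 5 genes passed an adjusted p of 0.05, and 0% of all tested genes were called higher. The lowest adjusted p over all genes was 0.566, and 307 genes were under 0.05 before adjustment. Once the line entered as a block, all 5 genes passed, and 1.62% of the tested genes were called higher. DESeq2, unpaired, called Gas1 and Gdpd2 (adjusted p = 3.39e-06 for both) and gave no adjusted p for Klhl38 and Fmo1. In the blocked fit without A1005, 2 of the 5 genes passed, and Klhl38 had too few reads to be tested. Without A1471, 2 passed, and without A1129, all 5.

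The same inhibitor was compared in the presence of Crizotinib, in libraries other than the DMSO and PD173074 libraries contrasted in the choice. Against Crizotinib alone, Gas1, Gdpd2 and Fmo1 passed in the unpaired edgeR test and all 5 genes in the blocked fit. Klhl38 and Fmo1 passed the filter on low counts only through libraries with PD173074, so their calls are given as a description and only Gas1, Gdpd2 and Mme bear on the comparison. Gas1 rose by 1.03 on the log2 scale (95% interval 0.74 to 1.32, adjusted p = 0.00129), or 2.28-fold, 1.95-fold and 1.91-fold in A1005, A1129 and A1471. Gdpd2 rose by 5.05 (3.72 to 6.38, adjusted p = 0.000936), which was 65.2-fold, 16.9-fold and 61.7-fold within these lines. Fmo1 had an adjusted p of 0.0410 and went from 4 to 645 summed counts, a ratio of 149 with an exact interval of 58.0 to 549.5.

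Mme and Klhl38 did not pass in edgeR without the block, whereas unpaired DESeq2 called Mme (4.79, adjusted p = 0.00332). In edgeR Mme had a log2 fold change of 4.77 (interval 0.85 to 8.69, adjusted p = 0.106), with 23.4-fold, 32.8-fold and 84.7-fold higher levels within A1005, A1129 and A1471. Klhl38 went from 7 to 549 summed counts, a ratio of 72.6 (35 to 181), of which A1005 held 538 counts, and its adjusted p was 0.184. With the block the adjusted p was 3.60e-06 for Mme, 4.39e-06 for Klhl38, 5.53e-06 for Fmo1, 7.35e-06 for Gdpd2 and 4.65e-05 for Gas1. In A1471 Klhl38 was at least 3.15-fold higher, against the limit of 3 counts.

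This count stands against a broad background. Of all tested genes, 5.4% were called higher and 7.78% lower in the unpaired test of the combination against Crizotinib, and 27.4% higher and 26% lower with the block. The median log2 fold change was 5.05 over the 5 genes and 0.02 over all tested genes, with Klhl38 and Fmo1 in the first by way of the filter. By log2 fold change Fmo1, Klhl38, Gdpd2 and Mme held ranks 20, 31, 60 and 67 of all tested genes, and Gas1 rank 1812. Leaving out A1471 left 1 of the 5 genes past the threshold in the unpaired test (Gdpd2, with Gas1 at an adjusted p of 0.0677 and Fmo1 at 0.226). Leaving out A1129 left 2 (Fmo1 at 0.175). Leaving out A1005 gave 4, with Mme at 0.0127 and Klhl38 not tested. In the blocked fit 4, 5 and 5 genes passed without A1005, A1129 and A1471.

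**Figure D2:**
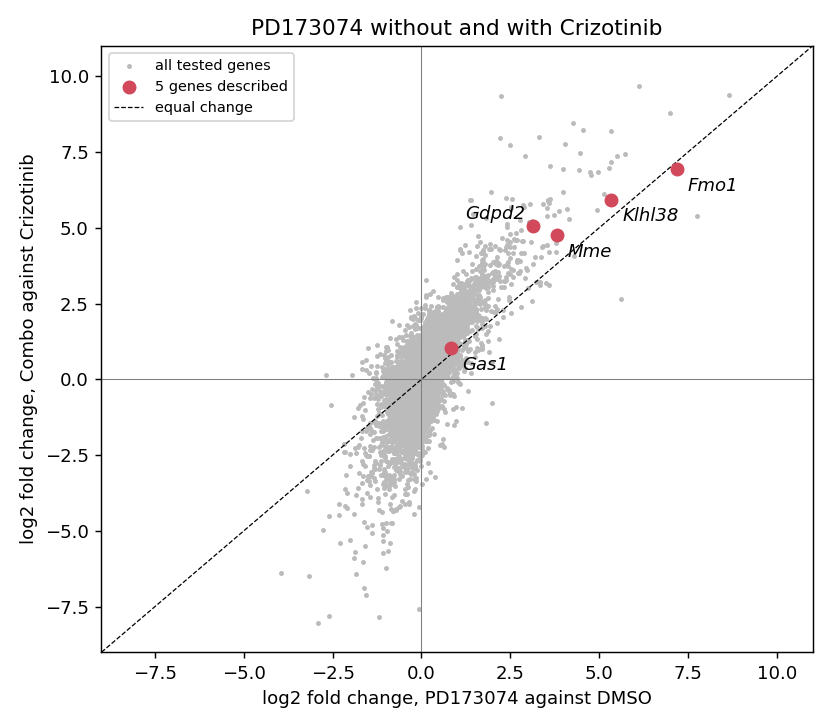
Unpaired log2 fold change of each tested gene with PD173074 against DMSO (horizontal axis) and with the combination against Crizotinib (vertical axis), in grey, with the 5 genes in red and a dashed line of equal change. Gdpd2 lies farthest above the line among the 5, at 3.15 and 5.05, and Gas1 lies near the lower end at 0.83 and 1.03.

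Crizotinib alone moved none of the 5 genes past the threshold. Against DMSO, 0% of the tested genes were called higher in the unpaired test and 0% with the block, where 18 and 258 genes were under 0.05 before adjustment, and DESeq2 called 1 gene, which was none of the 5. This contrast shares the DMSO libraries with the one that chose the genes. The log2 fold change in the blocked fit was 0.12 for Gas1 (95% interval -0.12 to 0.36), -0.31 for Gdpd2 (-1.18 to 0.57) and -0.15 for Mme (-0.997 to 0.704). A rise of Gas1 as large as its 0.83 with PD173074 lay outside this interval, as did rises of 3.24 for Gdpd2 and 4.06 for Mme. Those rises come from the contrast that chose the genes and may be too large through that choice. Setting them beside the intervals is therefore a description only. Gdpd2 fell to 0.450 of its DMSO level in A1005 and 0.644 in A1471 but was 1.23-fold higher in A1129. Mme stood at 0.832, 1.76 and 0.674 of its DMSO level in A1005, A1129 and A1471. The last 2 of these Mme values rest on 14 against 8 and 11 against 17 counts. Klhl38 (7 against 3 summed counts) had a ratio of 2.27 with an interval of 0.518 to 13.6, and Fmo1 (4 against 1) one of 3.89 with an interval of 0.385 to 191.6.

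Both inhibitors together, against DMSO, gave values like those against Crizotinib. Gas1, Gdpd2 and Fmo1 passed in the unpaired edgeR test (background 6.1% higher) and all 5 with the block (28.6% higher), in a comparison that again shares the DMSO libraries. Here too Klhl38 and Fmo1 passed the filter on low counts only through libraries with PD173074, so their calls are given as a description. The log2 fold change was 1.15 for Gas1 (adjusted p = 0.000707) and 4.78 for Gdpd2 (adjusted p = 0.00105). Fmo1 had an adjusted p of 0.0270, Mme 0.115 and Klhl38 0.143 in edgeR, and unpaired DESeq2 called Mme (adjusted p = 0.00544). Without A1129 or A1471 Fmo1 did not pass (adjusted p = 0.157 and 0.178), and without A1005 Mme did (0.0115).

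The combination was then set against PD173074 alone, a contrast that shares the PD173074 libraries with the one used for the choice. In the unpaired edgeR test 0 of the 5 genes passed, beside 0.838% of the tested genes called higher. Gdpd2 had a log2 fold change of 1.63 there (interval 0.49 to 2.77, adjusted p = 0.110), and unpaired DESeq2 called it (1.65, adjusted p = 0.0161). With the block all 5 were higher in the combination, beside 19.6% of the tested genes. Gdpd2 rose by 1.59 (0.88 to 2.31, adjusted p = 0.00394), at 3.40-fold, 3.28-fold and 2.55-fold in A1005, A1129 and A1471. Klhl38 (adjusted p = 0.00166) was at 549 against 165 summed counts and Fmo1 (0.00349) at 645 against 231, ratios of 3.14 and 2.64. Mme rose by 0.95 (0.35 to 1.55, adjusted p = 0.0188) and Gas1 by 0.32 (0.08 to 0.56, adjusted p = 0.0360), the smallest difference of the 5. In the blocked fit without A1129, Gas1 (0.213) and Mme (0.163) did not pass, without A1471 Gas1 (0.137) did not, and without A1005 Fmo1 (0.0532) did not and Klhl38 was not tested.

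**Figure D3:**
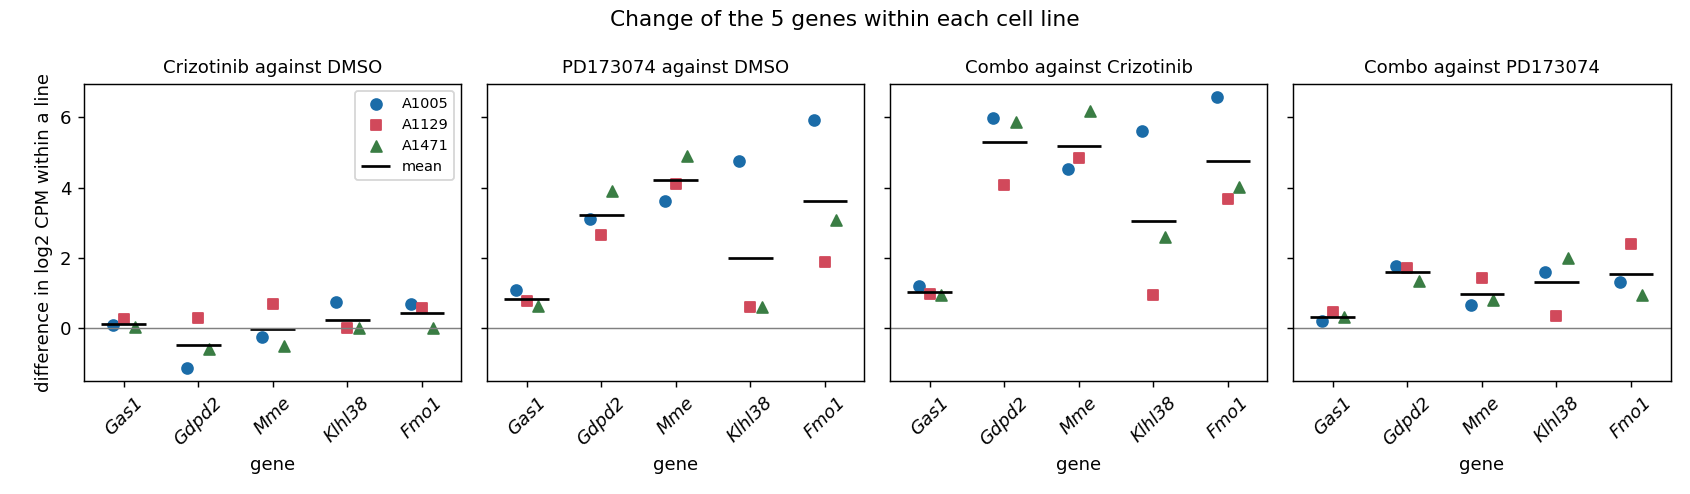
Difference in log2 CPM (prior count 2) within each cell line for 4 comparisons, with 1 point per line and a bar for the mean of 3 lines. The changes with Crizotinib alone scatter around 0, from -1.12 for Gdpd2 to 0.73 for Klhl38, both in A1005. Klhl38 had 7 and 3 counts there. All points of the other comparisons lie above 0. With PD173074 against DMSO this restates the choice of the genes. The Klhl38 points in A1129 and A1471 rest on at most 2 and 9 counts in a library.

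Expressed as a share, PD173074 alone reached part of the combination's rise over DMSO in every gene and line that could be counted. On the CPM scale this share was 78.2%, 52.3% and 58.8% for Gas1 in A1005, A1129 and A1471. It was 27.0%, 27.0% and 37.6% for Gdpd2, the lowest in A1005. For Mme it was 61.4%, 35.9% and 56.7%, for Fmo1 39.7%, 14.6% and 48.9%, and for Klhl38 in A1005 32.4%. Shares of Klhl38 in the other lines were not computed, since the combination held fewer than 20 counts there. The Fmo1 shares in A1129 and A1471 rest on 39 and 27 counts. These shares are within-line descriptions with no test. They contain the contrast that chose the genes, which may make them too large. They also depend on the scale. On the log2 scale of the unpaired fit, Gdpd2 changed by 3.15 with PD173074 and 4.78 with the combination, both against DMSO. Gas1 changed by 0.83 and 1.15.

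**Figure D4:**
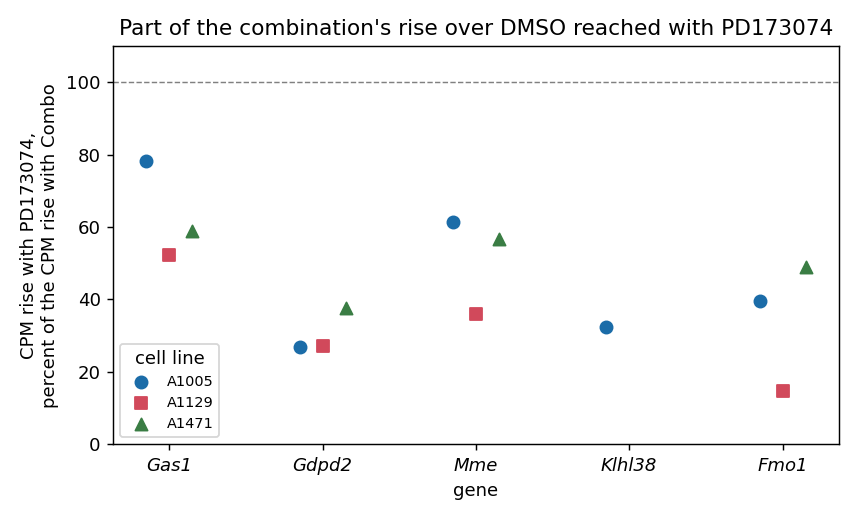
CPM rise with PD173074 over DMSO as a percent of the CPM rise with the combination over DMSO, with 1 point per cell line. The Gas1 points lie at 52.3% to 78.2% and the Gdpd2 points at 27.0% to 37.6%, and Klhl38 has a point for A1005 only. The rise with PD173074 over DMSO is the one the genes were chosen for.

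Whether PD173074 did more in the presence of Crizotinib was tested as a departure from the sum of both single changes on the log2 scale, a contrast that contains the one used for the choice. In the unpaired edgeR test none of the 5 genes passed, and 0.00723% of the tested genes were called higher. With the block 5.46% were, among them Gdpd2, with a departure of 1.90 (0.77 to 3.03, adjusted p = 0.0324), positive in 3 of 3 lines. The unpaired adjusted p of Gdpd2 was 0.429. In the blocked fit it did not pass without A1005 (0.156) or without A1471 (0.134). The departure was 1.10 for Mme (0.06 to 2.14, adjusted p = 0.134) and 0.20 for Gas1 (-0.14 to 0.54, adjusted p = 0.390). A departure of Gas1 above 0.54 thus lay outside its interval. Klhl38 and Fmo1 rested on 0 to 7 counts per library without PD173074, which leaves their departures undetermined.

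The line term was called in edgeR for 3 of the 5 genes. In the fit with treatment and line, the line term had an adjusted p of 1.62e-06 for Mme, 5.99e-08 for Klhl38 and 2.47e-06 for Fmo1, and it was called in 73.9% of all tested genes. Klhl38 passed the filter on low counts mainly through A1005 libraries and was not tested without that line. Its line call and its highest line are therefore given as a description. The mean log2 CPM over the 4 treatments for Mme was 5.89 in line A1005, 1.98 in line A1129 and 2.91 in line A1471. It was 1.52, -2.50 and -2.09 for Klhl38 and 1.23, -1.22 and -1.12 for Fmo1. A1005 was the highest line for all 3 genes. Gas1 had 6.92, 6.88 and 6.81 (adjusted p = 0.535). Gdpd2 had 4.74, 5.06 and 4.12, with an adjusted p of 0.0869 in edgeR and 0.0236 in the likelihood ratio test of DESeq2, so its call depends on the tool. The line with the highest Mme level had its smallest fold change with PD173074, whereas its rise in CPM was the largest, at 178 against 10.7 in A1129 and 37.3 in A1471.

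Over the 12 libraries the 5 genes moved alike, which their common choice favours. After each gene's log2 CPM was centred within its line, Pearson's r among the 10 pairs was 0.72 to 0.98 with a median of 0.93, and without centring 0.55 to 0.95. The points share libraries, depth and the 4 treatments, so the values describe these libraries only.

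The genes with the most similar course to each of the 5 were named by the highest r after centring within lines, over 12 libraries. For Gas1 they were Ubxn2b (0.99), Mfap1b (0.98) and Il6st, the shared receptor chain of the interleukin 6 family (0.98). For Gdpd2 they were Irf1, an interferon-regulated transcription factor (0.997), Steap4, a metalloreductase (0.99), and Pcdhga6, a protocadherin (0.99). For Mme they were Masp1, a protease of the lectin pathway of complement (0.99), Lbp, the lipopolysaccharide binding protein (0.99), and Naaladl2 (0.99). For Klhl38 they were Inhbb, a subunit of activin B (0.98), Gm17473 (0.97) and Ncf4 (0.95). For Fmo1 they were Cd74, the invariant chain of class II antigen presentation (0.99), Timp3, an inhibitor of metalloproteinases (0.99), and Spib, an Ets family transcription factor (0.99). Such likeness was common: 169 tested genes had an r over 0.95 with Gdpd2, 111 with Mme, 72 with Gas1, 38 with Fmo1 and 2 with Klhl38.

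Several of these genes had low or high levels of their own. Il6st averaged 264 CPM with DMSO and 562 with the combination. Lbp averaged 21.5 CPM with DMSO, 13.6 with Crizotinib, 106 with PD173074 and 182 with the combination. Cd74 and Spib averaged 0.0691 and 0.0680 CPM with DMSO and 5.96 and 16.7 CPM with the combination, so they, like Fmo1, were near 0 at the start. Without centring another gene came first for each of the 5: Foxc1 for Gas1, Pcdhga6 for Gdpd2, Eif2ak2 for Mme, Enpp2 for Klhl38 and Abat for Fmo1.

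The relatives of the 5 genes were followed in fixed lists. The 5 were chosen for their change and their relatives were not, so their larger values beside the lists follow from that choice. The lists' counts are read against the shares over all tested genes given above for the combination against Crizotinib, 5.4% higher without the block and 27.4% higher and 26% lower with it. Of 10 other tested Hedgehog genes, Cdon was called higher in that comparison without the block and 5 were with it, while 1 was lower. Cdon, which acts beside Gas1 as a co-receptor, averaged 10.98 CPM with DMSO, 12.4 with Crizotinib, 25.5 with PD173074 and 63.9 with the combination. Its log2 fold change was 2.36 in the combination against Crizotinib (adjusted p = 0.0231) and 1.28 with PD173074 against DMSO in the blocked fit (adjusted p = 0.0211). Hhip, a Hedgehog-binding inhibitor that is also a target of the pathway, went from 30.7 ± 43.2 CPM (SD, n = 3) with Crizotinib to 1.51 ± 2.01 CPM with the combination. Its SD exceeded its mean in both groups. Hhip fell by 4.23 in the blocked fit (adjusted p = 1.42e-06) and did not pass in the unpaired one (0.211). With PD173074 against DMSO it was also lower in the blocked fit (-0.86, adjusted p = 0.0498). Smo, the signal transducer, was called higher only with the block (0.48, adjusted p = 0.00546). The ligand Shh was at 0 counts in all 12 libraries, Ihh at no more than 9 and Dhh at no more than 6. The list's median log2 fold change was 0.44, beside 0.02 over all tested genes.

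In the other families the counts were as follows. Of 5 other tested glycerophosphodiester phosphodiesterases, 0 were called without the block and 1 was with it in the combination against Crizotinib. With 5 genes these counts are near the background. The gene called was Gdpd1, with a log2 fold change of 1.09 (adjusted p = 0.00106) from 25.4 to 58.6 CPM, beside 5.14 for Gdpd2. Gdpd5 (0.67, adjusted p = 0.0962) and Gpcpd1 (0.39, adjusted p = 0.0676) did not pass. Of 3 other tested surface peptidases, Anpep, an aminopeptidase (1.52, adjusted p = 0.00413), and Ece1, the endothelin-converting enzyme (0.31, adjusted p = 0.0369), were higher, and Phex, a peptidase best known from bone, fell by 2.18 (adjusted p = 5.23e-06), all in the blocked fit only. Dpp4, Enpep and Mmel1 held at most 2 counts in a library.

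Among 21 other tested kelch-like genes, 1 was called higher without the block and 6 higher and 3 lower with it, in the combination against Crizotinib. The shares called higher were close to those over all genes. Klhl24 rose by 1.78 without the block (adjusted p = 0.0102), from 71.5 CPM with Crizotinib to 246 CPM with the combination. Klhl2 (-0.50, adjusted p = 0.00633) and Klhl26 (0.70, adjusted p = 0.00504) moved in opposite directions in the blocked fit. With PD173074 against DMSO 0 of these 21 genes passed in either fit. Of the other flavin-containing monooxygenases Fmo5 had enough reads to be tested and averaged 0.828 CPM with Crizotinib and 4.85 CPM with the combination, with a blocked log2 fold change of 2.51 (adjusted p = 0.000696; unpaired 0.177). Fmo4, Fmo6 and Fmo9 each held 1 count in all 12 libraries together and Fmo2 held 0.

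Growth arrest genes, a list named for their first isolation in arrested cells and not for a shared function, did not move one way. Of the 5 others tested, Gas2, a cytoskeletal protein, fell by 1.45 in the combination against Crizotinib (adjusted p = 0.0116, unpaired). Pmp22, a myelin protein (1.30, adjusted p = 6.47e-05), and Gas7 (1.53, adjusted p = 0.00794) were higher in the blocked fit only, and with PD173074 against DMSO 0 of the 5 passed in either fit.

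**Figure D5:**
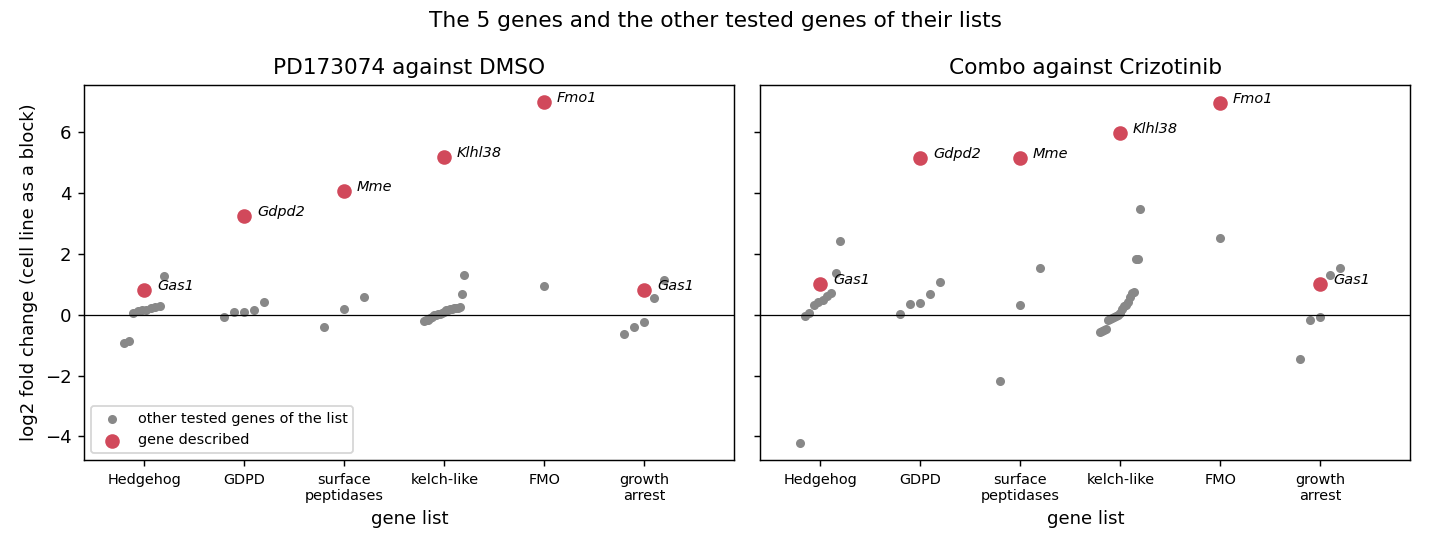
Log2 fold change in the blocked fit of each of the 5 genes (red) and the other tested genes of its list (grey), for PD173074 against DMSO and for the combination against Crizotinib. In the left panel the red points restate the choice of the genes. In the right panel Gas1, at 1.03, lies below Cdon, at 2.42, and Gdpd2 at 5.14 stands beside Gdpd1 at 1.09.

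ERK target genes were followed in the same libraries. Of 18 tested, 0 passed with PD173074 against DMSO in the unpaired test and 5 were lower with the block: Dusp6, Spry4, Etv1, Etv4 and Etv5. In that blocked fit 296 of all 13836 tested genes were called, 224 of them higher. In the combination against Crizotinib 14 were lower without the block and 15 with it, where 1 was higher. Over all tested genes 7.78% were lower there without the block and 26% with it. Dusp6, a phosphatase that inactivates ERK, averaged 182 CPM with DMSO, 225 with Crizotinib, 86.6 with PD173074 and 5.56 with the combination. Etv5 averaged 68.7, 75.2, 32.3 and 2.14 CPM. Egr1 and Fos, singled out after their values were seen, went another way: Egr1 averaged 21.1 CPM with DMSO and 74.9 with PD173074 (blocked log2 fold change 2.10, adjusted p = 0.101) and 9.28 with the combination. Fos averaged 2.05, 5.86 and 6.74 CPM in these groups and was the gene called higher in the combination against Crizotinib (blocked 1.65, adjusted p = 0.0442). The list's median log2 fold change was -0.66 with PD173074 and -2.87 in the combination against Crizotinib, while Gas1 changed by 0.83 and 1.03 in these comparisons. Of the inhibited receptors, Fgfr1 averaged 287 ± 31.7 CPM (SD, n = 3) with DMSO and 246 ± 1.88 with PD173074, and Met 4227 ± 1399 and 6595 ± 1891. Met passed with the block (adjusted p = 0.0453) but not without it (adjusted p = 1), and Fgfr1 passed in neither fit (0.445 with the block).

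The genes next to the 5 on their chromosomes were followed in the same way. Within 500 kb there were 6 other tested genes around Gas1, 7 around Gdpd2, 1 near Mme, 13 around Klhl38 and 4 around Fmo1, and 0 of these 31 passed with PD173074 against DMSO in the blocked fit. With 1.62% of all genes called higher there, a count of 0 is near the background. In the combination against Crizotinib 8 of the 31 were higher and 11 lower with the block, beside 27.4% higher and 26% lower over all tested genes. The nearest tested neighbour of Gdpd2, the mitotic kinesin gene Kif4 at a distance of 2.66 kb, fell by 1.53 in the combination against Crizotinib (adjusted p = 0.00946), whereas Dlg3 on the other side had a value of -0.04 (adjusted p = 0.948). Fbxo32, which encodes the ubiquitin ligase subunit atrogin-1 and lies 99.6 kb from Klhl38, rose by 3.30 in that comparison (adjusted p = 0.0228), from 9.29 to 91.5 CPM. Fam91a1, on its other side, had a value of 0.00 (adjusted p = 0.999). Neither neighbour of Mme (Gpr149 and Plch1), of Fmo1 (Prrc2c and Prrx1) or of Gas1 (Tut7 and Dapk1) passed in the unpaired test. With the block Tut7 was higher (0.64, adjusted p = 0.000785) in the combination against Crizotinib, and Dapk1 (-1.29, adjusted p = 0.00311), Prrx1 (-0.89, adjusted p = 0.00185) and Gpr149 (-0.89, adjusted p = 0.0369) were lower.

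Markers of other cells were read beside these values. The summed level of 7 fibroblast markers was 139 to 467 CPM with DMSO, 127 to 486 with Crizotinib, 258 to 1159 with PD173074 and 345 to 1720 with the combination, with A1005 the highest line in each treatment. Of 5 tested, 0 were called in the unpaired fit, while with the block 4 were higher with PD173074 against DMSO and 5 in the combination against Crizotinib. Over all tested genes 1.62% and 27.4% were called higher in these blocked comparisons. In the fibroblast list Thy1 was at 0 counts in all libraries and Lum at no more than 1. The part of this list in the values of the 5 genes was not tested. Of the myoepithelial markers, which Mme can accompany, the summed level of 8 was 6.64 to 22.9 CPM with DMSO, 9.11 to 23.7 with Crizotinib, 6.26 to 29.7 with PD173074 and 7.09 to 31.4 with the combination. Krt5 was at 0 in all libraries, and Krt14 and Acta2 held at most 11 and 10 counts. Trp63 averaged 1.297, 0.2497, 4.78 and 2.134 CPM in these groups. Its counts ranged from 0 to 229 per library, so a group mean can rest on 1 library. Of 2 tested myoepithelial markers, 0 were called with PD173074 against DMSO. With the block 1 was higher in the combination against Crizotinib, beside 27.4% of all tested genes, and 2 genes are too few to compare with that share. The part of this list was not tested either. Luminal markers summed to 16.2 to 71.1 CPM with DMSO and 7.09 to 47.8 with the combination, leukocyte markers to 4.54 to 31.5 and 8.53 to 42.3, and endothelial markers to no more than 0.752 in any library. The mesenchymal tumour cell list, which includes Vim and Met, summed to 5334 to 11839 CPM over all groups.

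Total counts were 13031492 to 17750476 per library with TMM factors of 0.973 to 1.04, and none of the 66 pairs of libraries agreed within sampling noise (chi-square divided by its degrees of freedom at least 4.54). The labels name no culture batch, so p-values measure the spread between these libraries of 3 lines.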

How the data were processed

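The members and lists were chosen with earlier results of these data known. The authors deposited 1 table of raw counts of reads per gene for the 12 libraries. Per the labels and methods, total RNA was sequenced on a NextSeq500, demultiplexed with bcl2fastq, aligned with STAR to mm10 and counted with HTSeq. Their versions, strand setting and annotation release are not given in the sources used here.

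After filterByExpr (at least 10 counts, total at least 15) and TMM scaling, edgeR 4.0.16 (R 4.3.3) gave quasi-likelihood tests from 1 unpaired fit of treatment over all libraries, as the study's methods state, with Benjamini-Hochberg adjustment over 13836 genes and a threshold of 0.05. The cell line as a block was the alternative. The lines pair the libraries: residuals of libraries of the same line correlated at 0.871 on average (lowest 0.766, 18 pairs), and of different lines and treatments at -0.422. Blocked values are therefore given where they change a call. The residuals were taken from the mean of the lines in each treatment, where they cancel, so the negative correlation follows from the positive one. DESeq2 1.42.0, its size factors, total counts alone, no filter, a prior count of 0.5 and leaving out each line were other alternatives. Leaving out lines within the blocked fit was added after the data were seen. Log2 CPM used a prior count of 2.

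The genes named were the 5 members, up to 3 genes per list with the smallest p in the combination against Crizotinib, list genes called in the blocked PD173074 fit, the 3 most similar genes and the nearest tested neighbours of each member, Met and Fgfr1. Depth sets the precision of Klhl38 and Fmo1, whose libraries hold 0 to 7 counts without PD173074. Tables and plots were made in Python 3.11.15 (pandas 2.3.3, numpy 2.4.6, scipy 1.17.1, matplotlib 3.10.9).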

Additional observations from a re-analysis of the deposited data

Results flagged for a closer look

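Gdpd2 was singled out because its change with PD173074 differed with and without Crizotinib: the departure from the sum of the single changes was 1.90 on the log2 scale in edgeR's blocked fit (adjusted p = 0.0324), positive in 3 of 3 lines, and did not pass in the unpaired one (adjusted p = 0.429). This contrast contains the one that chose the gene.

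With Crizotinib against DMSO, Gdpd2 and Mme had log2 differences of opposite sign in different lines. For Gdpd2 the highest and lowest log2 differences were 1.42 apart, with 0.30 in A1129 and -1.12 in A1005. For Mme they were 1.18 apart, with 0.68 in A1129 (14 against 8 counts) and -0.50 in A1471 (11 against 17 counts). At such low counts, counting error alone may give Mme differences of this size. Each line had 1 library per treatment, so this difference between lines was not tested.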

How the results depend on the processing

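With the replicate block (cell line), the members called higher went from 0 to 5 with PD173074 against DMSO, from 3 to 5 in the combination against Crizotinib and against DMSO, from 0 to 5 in the combination against PD173074 and from 0 to 1 for the departure from additivity. The genes called in these comparisons went from 0 to 296, 1823 to 7389, 1990 to 7578, 660 to 5506 and 127 to 2241. The block changed no call of a member with Crizotinib against DMSO. Klhl38 and Fmo1 stand in these counts of members as a description, since they passed the filter on low counts only through libraries with PD173074. DESeq2 called 2 members (Gas1 and Gdpd2) and 27 genes with PD173074, 1 member (Gdpd2) and 1449 genes in the combination against PD173074, 2860 genes in the combination against Crizotinib, 403 for the departure and 1 with Crizotinib. It gave no adjusted p for Klhl38 and Fmo1. Without the filter on low counts, 1146, 1160, 401 and 66 genes were called in the combination against Crizotinib, DMSO and PD173074 and for the departure. The causes of these shifts were not tested.

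Leaving out a line gave 1 (without A1471) to 4 members (without A1005) and 109 to 1835 genes in the combination against Crizotinib, 120 to 2021 genes against DMSO, 60 to 627 against PD173074 and 0 for the departure. In the blocked fit it gave 2 to 5 members and 4 (without A1471) to 131 genes with PD173074, 4880 to 6545 genes in the combination against Crizotinib, 3 to 4 members and 2352 to 4734 genes against PD173074, and 0 to 1 member and 423 to 1679 genes for the departure. No member's fold change past the threshold reversed in any of these settings: of 192 values in the unpaired alternatives 180 kept their side of the threshold, 5 lost it and 7 gained it, of 30 with the block 15 kept it and 15 gained it, and of 84 in the blocked fit with lines left out 73 kept it and 11 lost it. At most 7 counts per library without PD173074 limit the fold changes of Klhl38 and Fmo1 against DMSO or Crizotinib.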
